A study of Mus musculus with 8 samples.

Results

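The testis ADAM genes are the members of the ADAM family (a disintegrin and metalloprotease) whose proteins are carried on the surface of mouse sperm or used to build it. All 10 genes on the list, *Adam1a*, *Adam1b*, *Adam2*, *Adam3*, *Adam5*, *Adam6a*, *Adam6b*, *Adam18*, *Adam24* and *Adam32*, were found by symbol among the 55357 genes of the deposited table. Germ cells were isolated from the testes of 8 C57BL/6 males at 15 days after birth, 1 library per mouse. The 4 controls carried floxed alleles of *Mgat2* without Cre (*Mgat2*[F/F]). The 4 *Mgat2*[F/F]:*Stra8*-iCre males (cKO) also carried the *Stra8*-iCre transgene, whose promoter is first active in spermatogonia, so that *Mgat2* is deleted in germ cells and not in the somatic cells of the tubule. *Mgat2* encodes a Golgi enzyme that adds N-acetylglucosamine on the way to complex N-glycans.

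ADAM proteins are made as precursors that carry N-glycans, fold in the endoplasmic reticulum with the help of testis-specific chaperones and lose their prodomain before they reach the sperm surface. ADAM2 is the shared partner in this family. It pairs with ADAM1A in the endoplasmic reticulum and with ADAM1B on sperm, and sperm without ADAM2 or ADAM1A lack ADAM3 at their surface. ADAM3 is needed for sperm to enter the oviduct through the uterotubal junction and to bind the zona pellucida. The RNA data bear on the transcripts of these genes and not on the glycans, folding or cleavage of the proteins.

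RSEM expected counts summed to 12584726 to 15907505 per library, and a floor of 3 counts, the least that was read as signal, was worth 0.189 to 0.238 CPM, counts scaled to the size of the library. CPM here were normalised between libraries with TMM factors and are used to compare samples, whereas TPM values, RSEM's transcript estimates scaled within a library, also allow for gene length and are used to compare genes. *Mgat2* was at 69.8, 31.8, 64.3 and 59.8 CPM in controls 1 to 4 and at 35.3, 20.1, 37.6 and 16.0 CPM in cKO 1 to 4. Its groups overlapped through control replicate 2, and its log2 fold change, cKO over control, was -1.05 ± 0.36 (SE, edgeR adjusted p = 0.47), and -1.08 (adjusted p = 0.45) without replicate 1 of both genotypes. Replicate 1 was the highest library of both genotypes for 6 of the ADAM genes described here, and not for *Adam1a*. The ADAM genes and the counts of called genes are therefore also given without replicate 1 of either genotype, a comparison of 3 against 3 libraries that was chosen because earlier results of these data had shown those libraries to differ. Nothing in the labels states what sets them apart, and the spread between libraries is that between single mice.

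Transcripts of 7 of the 10 genes were detected, and 3 were not. *Adam6a* and *Adam6b*, whose protein joins ADAM2 and ADAM3 on sperm, and *Adam24*, which encodes a protease of mature sperm, had 0 counts in all 8 libraries. A count of 0 allows up to 3 counts in each library. The 7 detected genes passed the expression filter (TPM of 1 or more in any library) and were tested. In controls, *Adam5* stood at 51.3 ± 52.9 TPM (SD, n = 4) and *Adam2* at 50.7 ± 35.4. *Adam32* followed at 32.8 ± 31.9 TPM and *Adam3* at 16.7 ± 19.3. The lower levels were those of *Adam1b* at 5.82 ± 5.40 TPM, *Adam18* at 5.20 ± 6.30 and *Adam1a* at 2.75 ± 1.08.

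The order of these levels was partly stable between libraries. *Adam2* exceeded *Adam32*, and *Adam32* exceeded *Adam3*, in 8 of 8 libraries. Neighbours elsewhere in the order were not separated. *Adam5* was above *Adam2* in only 2 libraries, which were replicate 1 of both genotypes, *Adam3* was above *Adam1b* in 5 and *Adam1b* was above *Adam18* in 6. *Adam18* exceeded *Adam1a* in 2 of 8 libraries, so that its higher mean in controls came from control replicate 1. Summed over the 7 genes, the level was 384.3, 75.0, 142.5 and 59.5 TPM in controls 1 to 4 and 116.4, 19.9, 23.4 and 16.6 TPM in cKO 1 to 4. The cKO library of replicate 1 thus lay above controls 2 and 4, while the 3 other cKO libraries lay below every control.

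**Figure D1:**
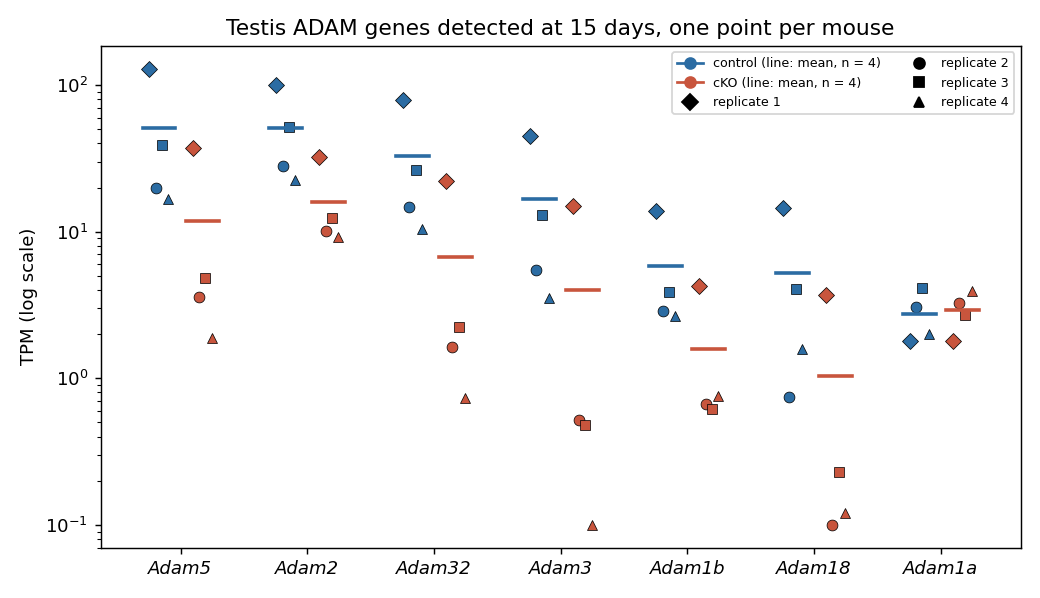
TPM of the 7 detected testis ADAM genes on a log scale, 1 point per mouse, with controls in blue, cKO in red, symbols for the replicate number and a line at the mean of each group (n = 4). Replicate 1 is the highest library of its genotype for 6 genes, and *Adam1a* is the gene for which it is not.

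Of the 7 tested genes, 6 had log2 fold changes between -2.33 and -1.62, and 1, *Adam1a*, was at 0.10. None passed the threshold with all 8 libraries in the edgeR quasi-likelihood test (0 of 7 called, 0 also at an unadjusted p under 0.05), and DESeq2 called 0 of 7 as well. Over all 20187 genes tested, edgeR called 8, or 0.0396%, and DESeq2 called 302, or 1.50%. The median difference on the log2 scale was -2.0 over the 7 genes and 0.01 over all genes tested. No member had every cKO library below every control, against 3.03% of all genes. Without replicate 1 of both genotypes, 4 of the 7 were called, all lower in cKO, against 4.32% of 19577 genes called and 3.86% called lower. The median over all 7 was then -2.88. In those 6 libraries every cKO value was below every control value for 6 of the 7, against 10.5% of all genes. In bulk RNA, fewer cells that carry a transcript and less transcript per cell cannot be told apart.

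*Adam2* encodes fertilin beta. Its 21 exons lie on chromosome 14 (chr14:66264778-66315204, reverse strand, GRCm39). It was at 144.7, 38.9, 73.8 and 31.0 CPM in controls 1 to 4 and at 48.3, 14.6, 17.7 and 13 CPM in cKO 1 to 4. Its cKO libraries 2 to 4 lay close together, and the groups overlapped because cKO replicate 1 exceeded controls 2 and 4. The log2 fold change was -1.62 ± 0.67 (SE, edgeR adjusted p = 0.56) in all libraries and -1.67 ± 0.42 (adjusted p = 0.19) in replicates 2 to 4. It was not called in either comparison. Leaving out replicate 1 of 1 genotype moved the log2 fold change to -1.03 (control replicate 1) or -2.25 (cKO replicate 1), which offset each other when both were left out. Replicate 1 stood above the mean of replicates 2 to 4 by a similar factor in both genotypes, 3.02 in control and 3.19 in cKO.

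*Adam18*, *Adam3*, *Adam5* and *Adam32* lie next to each other on the reverse strand of chromosome 8. *Adam18* (20 exons in its longest transcript) occupies chr8:25092262-25164775 and *Adam3* (22 exons) chr8:25167241-25215922. *Adam5* (21 exons) occupies chr8:25217109-25314636 and *Adam32* (22 exons) chr8:25326156-25438845. The gaps between neighbours are 2466, 1187 and 11520 bp, with no other annotated protein-coding gene in them. No stretch of 150 bases, the read length, was identical between the transcripts of any pair of these 4 genes, so that their reads can be told apart by sequence.

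*Adam3* encodes cyritestin, the ADAM protein of zona binding and oviduct entry. It was at 61.2, 7.26, 14.7 and 5.15 CPM in controls 1 to 4. In cKO 1 to 4 it was at 20.4, 0.777, 0.698 and 0.142 CPM, the last from 2 counts. Control replicate 1 was thus 6.76 times, and cKO replicate 1 as much as 37.8 times, the mean of the other 3 libraries of its genotype. Its log2 fold change was -2.0 ± 1.51 (SE, edgeR adjusted p = 0.73), and -4.04 ± 0.60 (adjusted p = 0.0092) in replicates 2 to 4. There the gene had 411 counts in controls and 24 in cKO, a normalised ratio of 17.1 with an exact Clopper-Pearson 95% interval of 11.3 to 26.9 that covers counting error only.

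*Adam5* was the member with the highest mean in controls. It was at 199.0, 29.4, 59.2 and 24.4 CPM in controls 1 to 4 and at 58.5, 5.24, 7.33 and 2.84 CPM in cKO 1 to 4. Every cKO library of replicates 2 to 4 was below the lowest control, and cKO replicate 1 was close to control replicate 3. The log2 fold change was -2.08 ± 1.19 (SE, edgeR adjusted p = 0.65), and -2.88 ± 0.56 (adjusted p = 0.10) in replicates 2 to 4, so that it was not called in either.

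*Adam32* ran closest to *Adam5*. It was at 96.5, 15.2, 25.5 and 12.8 CPM in controls 1 to 4 and at 29.0, 2.26, 3.14 and 0.993 CPM in cKO 1 to 4. The libraries fell in the same order as for *Adam5* within each genotype. With all libraries the log2 fold change was -2.08 ± 1.23 (SE, edgeR adjusted p = 0.67), and -3.06 ± 0.46 (adjusted p = 0.021) in replicates 2 to 4.

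*Adam18* was the least abundant of the 4 by TPM. It was at 19.1, 0.972, 5.18 and 2.03 CPM in controls 1 to 4. In cKO 1 to 4 it was at 4.85, 0.129, 0.279 and 0.142 CPM, and cKO replicates 2 and 4 had 2 counts each, which is under the floor of 3. For *Adam18* the log2 fold change was -2.33 ± 1.44 (SE, edgeR adjusted p = 0.67), and -3.85 ± 0.64 (adjusted p = 2.1e-04) in replicates 2 to 4. The latter rests on 123 counts in controls and 8 in cKO, a normalised ratio of 15.3 with an exact Clopper-Pearson 95% interval of 7.53 to 36.3.

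*Adam9*, the next gene on the same strand, lies 781 bp from *Adam32* and encodes a widely expressed metalloprotease. It was at 74.3, 93.1, 89.3 and 81.5 CPM in controls 1 to 4 and at 79.5, 89.1, 101.6 and 85.5 CPM in cKO 1 to 4. The groups overlapped, its log2 fold change was 0.07 ± 0.10 (SE, edgeR adjusted p = 0.86) and 0.06 (adjusted p = 0.80) in replicates 2 to 4, and replicate 1 was not high in either genotype. On the other side, *Ido1*, 5237 bp from *Adam18*, was at 0 CPM in 7 libraries and at 0.213 CPM in cKO replicate 4. The spread between libraries that the 4 neighbours shared was therefore not seen in *Adam9*, and *Ido1* had too few counts to show one.

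**Figure D2:**
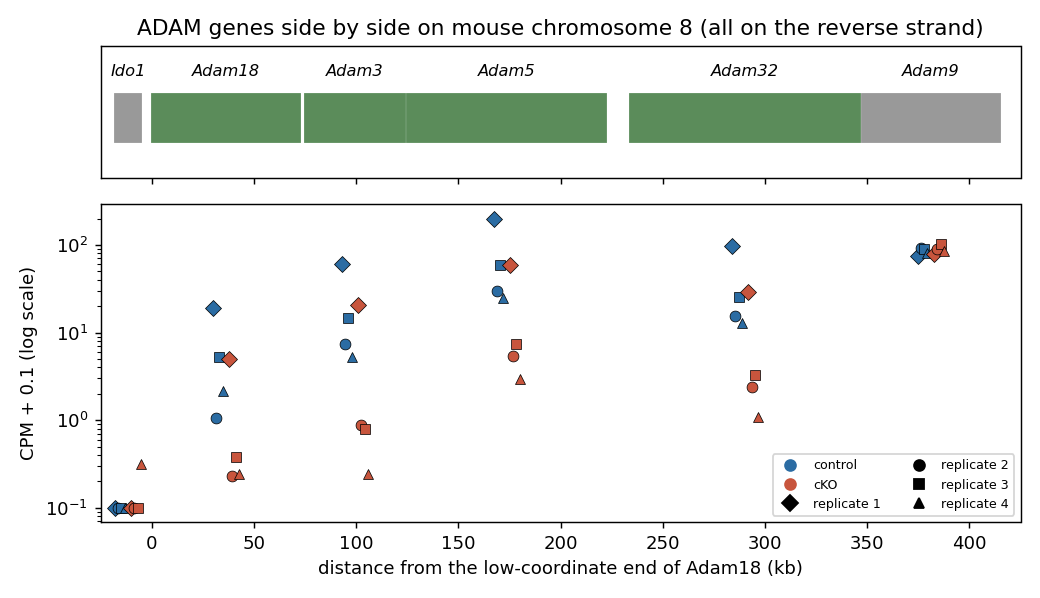
The upper panel maps the 4 neighbouring testis ADAM genes (green) and their flanking genes (grey) on chromosome 8 by distance in kb. The lower panel gives CPM + 0.1 of each gene on a log scale in controls (blue) and cKO (red), 1 point per mouse with symbols for the replicate number. *Adam18*, *Adam3*, *Adam5* and *Adam32* are high in replicate 1 of both genotypes and low in cKO 2 to 4, while *Adam9* lies between 74.3 and 101.6 CPM throughout.

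The alpha subunits of fertilin come from 2 genes on chromosome 5, each with 1 exon on the reverse strand. *Adam1b* (chr5:121638161-121641498) and *Adam1a* (chr5:121656639-121660134) are 15141 bp apart, and both lie within introns of *Tmem116* on the other strand. Their coding sequences, 2418 bases for *Adam1b* and 2373 for *Adam1a*, were 82.0% identical over 2257 aligned bases. The identity is uneven, and a run of 1082 bases is the same in both. The following 150 bases of that run, as long as a read, are at chr5:121658971-121659120 in *Adam1a* and at chr5:121640819-121640968 in *Adam1b*, both on the reverse strand of GRCm39, and are shown because a read from them fits both genes.
Shared run: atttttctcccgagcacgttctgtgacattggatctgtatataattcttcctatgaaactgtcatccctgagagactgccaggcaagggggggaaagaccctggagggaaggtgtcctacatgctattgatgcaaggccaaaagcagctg

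Elsewhere the genes differ enough to place a read. The window of 60 aligned coding bases with the most differences, 31, lies at chr5:121657856-121657915 in *Adam1a* and at chr5:121639704-121639763 in *Adam1b*. Capitals mark the bases that differ.
Adam1a: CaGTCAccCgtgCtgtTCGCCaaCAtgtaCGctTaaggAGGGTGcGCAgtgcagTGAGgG
Adam1b: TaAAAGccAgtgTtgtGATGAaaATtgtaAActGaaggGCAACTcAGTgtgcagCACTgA
Of all stretches of 150 bases in the transcripts, 933 were common to both genes, 27.9% of those of *Adam1a* and 29.3% of those of *Adam1b*. RSEM divides reads that fit both genes by estimate, and the values of either gene are uncertain to that extent.

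*Adam1b*, whose product pairs with ADAM2 on the sperm surface, was assigned 411.71, 85.78, 120.38 and 64.25 expected counts in controls 1 to 4. In cKO 1 to 4 it was assigned 128.83, 20.45, 17.69 and 20.61. Its libraries followed the pattern of *Adam2*, with replicate 1 high in both genotypes and cKO replicates 2 to 4 below every control. The log2 fold change was -1.87 ± 0.92 (SE, edgeR adjusted p = 0.62), and -2.17 ± 0.30 (adjusted p = 2.9e-06) in replicates 2 to 4.

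*Adam1a*, whose product pairs with ADAM2 in the endoplasmic reticulum, was assigned 56.30, 95.75, 136.34 and 50.97 expected counts in controls 1 to 4. In cKO 1 to 4 it was assigned 57.42, 104.83, 81.50 and 112.23. The groups overlapped widely, and replicate 1 was among the lower libraries of both genotypes. The log2 fold change was 0.10 ± 0.30 (SE, edgeR adjusted p = 0.96), and 0.11 ± 0.24 (adjusted p = 0.90) in replicates 2 to 4. Its sign in all libraries rested on single mice and was negative when control replicate 1 (-0.05), control replicate 4 (-0.03) or cKO replicate 4 (-0.07) was left out.

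Dividing reads between these 2 genes leaves their sum intact. The sum and the ratio were therefore also compared within each library, after the values of the single genes had been seen. Reads from the 771 bp of exon that *Adam1a* shares with *Gm42878* are divided as well, and that division can move the sum. *Adam1b* took 88.0%, 47.3%, 46.9% and 55.8% of the expected counts of both genes in controls 1 to 4 and 69.2%, 16.3%, 17.8% and 15.5% in cKO 1 to 4. The share was below every control in cKO 2 to 4 and exceeded 3 controls in cKO replicate 1. The difference in the log2 ratio, -2.18, gave p = 0.114 in a two-sided exact permutation test, or 0.171 adjusted over 6 such comparisons, with 0.029 the smallest p possible. The sum was 31.8, 11.8, 16.2 and 8.98 CPM in controls 1 to 4 and 12.3, 8.09, 6.98 and 9.43 CPM in cKO 1 to 4 (exact permutation p = 0.143, adjusted 0.171).

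**Figure D3:**
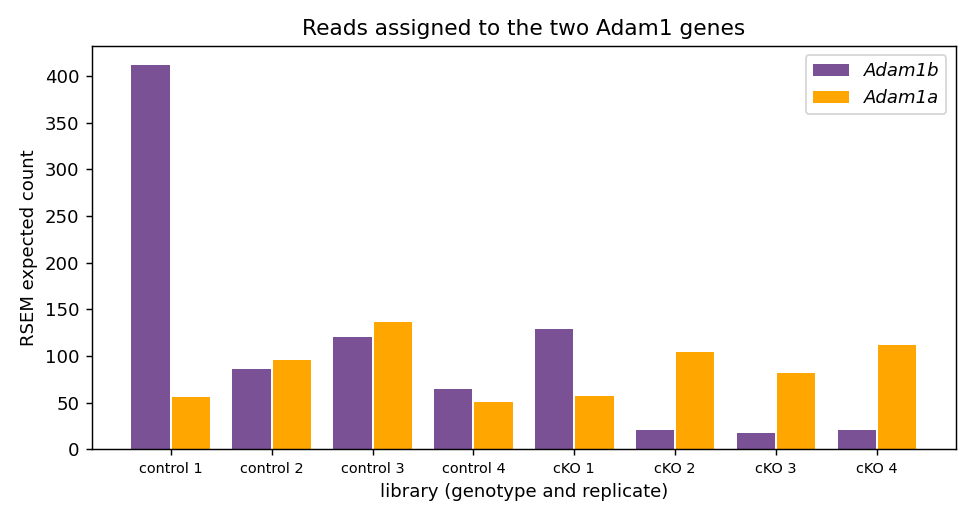
RSEM expected counts assigned to *Adam1b* (purple) and *Adam1a* (orange) in each of the 8 libraries, with bars from 0. *Adam1b* is the larger of the pair in control 1, control 4 and cKO 1, and is at 17.69 to 20.61 in cKO 2 to 4, where *Adam1a* is at 81.50 to 112.23.

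The libraries were not stranded, and *Adam1a* shares 771 bp of exon, 22.1% of its length, with *Gm42878* on its own strand. It also lies 144 bp downstream of *Mapkapk5* on that strand. *Mapkapk5* was at 93.5 ± 14.8 TPM (SD, n = 4) in controls and 92.9 ± 4.56 in cKO, far above *Adam1a*, with a log2 fold change of -0.02 (edgeR adjusted p = 0.97). How much of the *Adam1a* signal comes from reads of these genes was not tested. *Adam1b* shares no exon with another gene.

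Promoter sequence in RefSeq (GRCm38.p6) was at hand for 4 of the 10 genes, *Adam1a*, *Adam1b*, *Adam6a* and *Adam6b*. The 250 bases before the start of *Adam1b* are shown because it is the detected gene among these that ran with the lower members. The same letters lie at chr5:121641499-121641748 on the reverse strand of GRCm39. Capitals mark a match to TAACNG, the core letters bound by MYB proteins such as MYBL1 of spermatocytes, which begins 107 bases before the start.
Adam1b promoter: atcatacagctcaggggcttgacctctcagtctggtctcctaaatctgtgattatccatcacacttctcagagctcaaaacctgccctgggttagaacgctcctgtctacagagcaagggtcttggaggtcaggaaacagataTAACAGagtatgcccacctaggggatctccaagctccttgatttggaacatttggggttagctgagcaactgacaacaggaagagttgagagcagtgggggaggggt
The 300-base window of *Adam1a*, at chr5:121659709-121660008, lies inside the gene span given above, so the bases before that span were not searched. On either strand, TAACNG was present in the 300-base windows of *Adam1b*, *Adam6a* and *Adam6b*, and not in that of *Adam1a*. It was in 23.3% of 32851 RefSeq promoters, so that a match is common. The *Adam6a* and *Adam6b* windows hold a common stretch of sequence, and the match of both is the same letters within it. GTTGCCA, a core of the sites of RFX factors, and TGACGTCA, the full cAMP response element, were in none of the 4, and in 4.4% and 1.8% of all promoters.

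Across the 8 libraries the 6 lower members ran together. Pearson's r of log2 CPM was 0.96 to 1.00 in the 15 pairs among them, and 0.93 to 1.00 for the deviations from the genotype means. In the 6 pairs that include *Adam1a* it was -0.58 to -0.43. These 8 points share 2 high libraries, those of replicate 1, and the values are a description. Among 15285 genes with a mean of at least 1 CPM, *Adam5* was most like *Adam32* (r = 0.998), *Crisp2* (0.998) and *Tmbim7* (0.997). *Adam32* was most like *Tcp10c* and *Fbp1* (both 0.999), and *Adam3* most like *Cmtm2a* and *Gm12462* (both 0.998) and *Plaat5* (0.996). *Adam2* was most like *Stk33*, *Ppp1r14bl* and *Lrrc34* (all 0.996), *Adam1b* most like *Fam50b* (0.997), *Cfap57* and *Slc2a5* (both 0.995), and *Adam18* most like *1700026J12Rik* (0.992), *Pebp4* and *4933406F09Rik* (both 0.989). *Adam1a* had other neighbours, *Dnm1l* (0.969), *Slc25a21* (0.961) and *Lnpep* (0.959).

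The proportions between members varied mainly in cKO replicates 2 to 4. The log2 ratio of *Adam5* to *Adam2* was 0.46, -0.40, -0.32 and -0.34 in controls 1 to 4 and 0.28, -1.48, -1.27 and -2.20 in cKO 1 to 4. That of *Adam3* to *Adam5* was -1.70, -2.02, -2.01 and -2.25 in controls and -1.52, -2.75, -3.39 and -4.32 in cKO. In cKO 2 to 4 *Adam3* had only 12, 10 and 2 counts, the last under the floor of 3. *Adam32* kept nearest to *Adam5*, with a log2 ratio of -1.21 to -0.93 in controls and -1.51 to -1.01 in cKO. The groups overlapped in all 3 ratios, and no difference between genotypes passed the test (exact permutation p = 0.114, 0.143 and 0.171, each 0.171 adjusted over the 6 comparisons).

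Of the other ADAM genes, 24 were in the table and 13 were tested. None was called with all libraries (0 also at an unadjusted p under 0.05 in edgeR, 0 by DESeq2), 6 of 13 had a log2 fold change under 0 and the median was 0.05. *Adam30* was the only one of the 13 with a log2 fold change under -1. It was at 16.1, 2.53, 5.94 and 2.5 CPM in controls 1 to 4 and at 5.18, 0.841, 0.907 and 0.851 CPM in cKO 1 to 4. Its log2 fold change was -1.79 ± 0.90 (SE, edgeR adjusted p = 0.62), and -2.08 (adjusted p = 4.3e-04) in replicates 2 to 4. *Adam4*, named after its values were seen, was at -0.01, and at 0.18 (edgeR adjusted p = 0.93) in replicates 2 to 4. It had 5 to 26 counts per library. The broadly expressed metalloproteases *Adam10* (0.08), *Adam15* (0.08) and *Adam17* (0.05), and *Adam22* and *Adam23* (both 0.22), which encode cell adhesion proteins of the nervous system, had small log2 fold changes with adjusted p between 0.74 and 0.85.

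**Figure D4:**
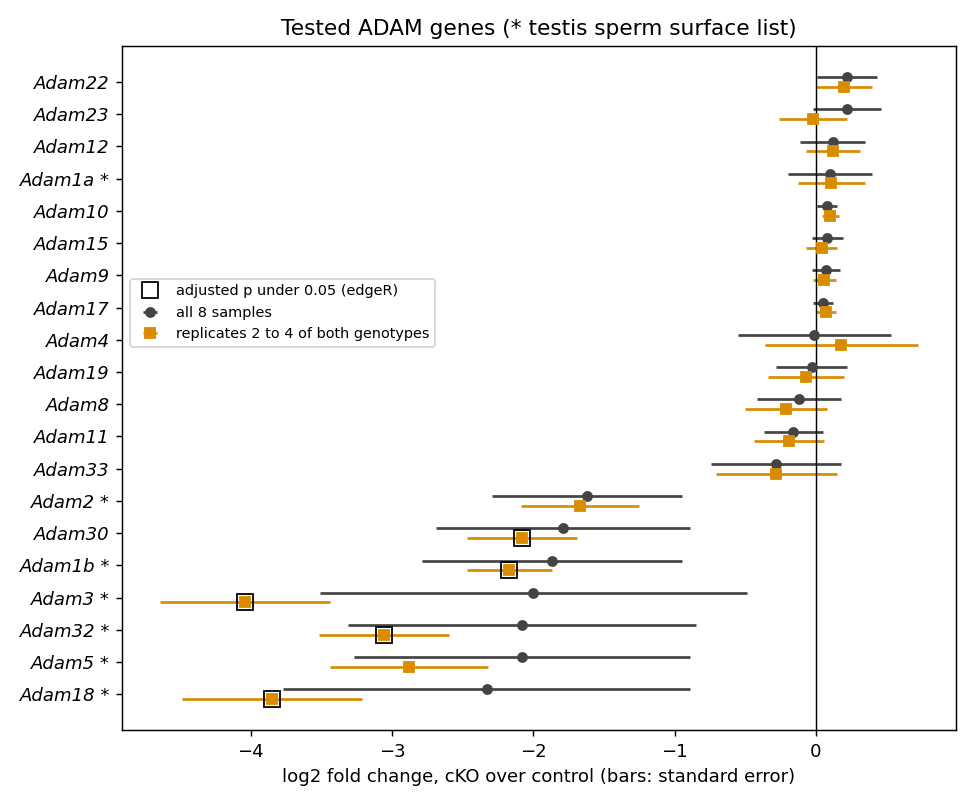
Log2 fold change, cKO over control, of the 20 tested ADAM genes with its standard error, in all 8 libraries (dark circles) and in replicates 2 to 4 of both genotypes (orange squares). Open black squares mark an edgeR adjusted p under 0.05, and asterisks mark the testis sperm surface genes. 6 of these and *Adam30* lie at -1.62 or lower, and *Adam1a* and the other 12 lie between -0.28 and 0.22.

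Proprotein convertases are the proteases that cut precursor proteins such as ADAMs after basic residues. Of 7 convertase genes 5 were tested, and 1 was called. *Pcsk4*, the convertase of testicular germ cells, was at 23.8, 16.1, 22.6 and 17 CPM in controls 1 to 4 and at 8.76, 6.99, 7.40 and 7.87 CPM in cKO 1 to 4. Every cKO library was below every control, and replicate 1 did not stand apart as it did in the ADAM genes. *Pcsk4* fell, with a log2 fold change of -1.36 ± 0.17 (SE, edgeR adjusted p = 0.035), and of -1.33 (adjusted p = 4.2e-07) in replicates 2 to 4. The call was near the threshold and was lost with limma-voom (adjusted p = 0.12) and with edgeR's filterByExpr (0.054). It was also lost without control replicate 3 (0.22) and without cKO replicate 2 (0.16), 3 (0.26) or 4 (0.19), with log2 fold changes of -1.36 to -1.29. With DESeq2 (adjusted p = 1.9e-09) and without the expression filter (0.0014) the call was kept. The log2 fold changes of *Furin* (0.05), *Pcsk5* (-0.10), *Pcsk6* (0.03) and *Pcsk7* (-0.10) were not called.

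The second group holds 16 genes whose products are needed for mature ADAM3 or for passage through the uterotubal junction. Of these 12 were tested, none was called with all libraries and 2 had an unadjusted p under 0.05, while DESeq2 called 1, *Tmprss12* (adjusted p = 0.030). DESeq2 gave no adjusted p for *Cmtm2a* and *Cmtm2b*, at log2 fold changes of -2.07 and -2.0, so that it could not call them. *Tmprss12*, a serine protease of sperm, was at 14.9, 5.58, 7.58 and 6.87 CPM in controls 1 to 4 and at 5.05, 2.91, 3.91 and 2.98 CPM in cKO 1 to 4. It was lower in every cKO library, with a log2 fold change of -1.23 ± 0.32 (SE, edgeR adjusted p = 0.31). *Clgn* encodes calmegin, a chaperone that acts on ADAM1A and ADAM2. It was at 383.7, 155.3, 224.3 and 125.1 CPM in controls and at 139.1, 65.7, 76.1 and 62.5 CPM in cKO. The groups overlapped through cKO replicate 1, and the log2 fold change was -1.37 ± 0.45 (edgeR adjusted p = 0.47), and -1.31 (adjusted p = 0.12) in replicates 2 to 4.

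In replicates 2 to 4, 4 of the 12 were called, all lower in cKO, against 3.86% of all genes called lower. They were *Tmprss12* (-1.03, adjusted p = 0.0059), *Lypd4* (-1.40, adjusted p = 0.014), *Cmtm2a* (-3.75, adjusted p = 1.8e-04) and *Cmtm2b* (-3.85, adjusted p = 4.2e-08), the last named after its values were seen. The *Cmtm2* genes encode membrane proteins of spermatids, and *Cmtm2a* was also among the genes most like *Adam3* across libraries. The GPI-anchored protein *Tex101* and the GPI-remodelling enzyme *Pgap1* had log2 fold changes of -0.19 and 0.23 (both adjusted p = 0.63). The chaperone gene *Pdilt*, and *Rnase10*, *Prss37* and *Prss55*, stayed under the expression filter, and the latter pair had 0 TPM in all 8 libraries. Over the 12 tested genes the median was -0.15 on the log2 scale with all libraries and -0.11 in replicates 2 to 4.

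The third group holds 16 other genes of the acrosome and of sperm-egg contact, of which 6 were tested and none was called with all libraries. *Acr*, which encodes the acrosomal protease acrosin, was at 20.2, 7.26, 11.1 and 5.15 CPM in controls and at 6.51, 1.75, 2.51 and 0.922 CPM in cKO 1 to 4, with a log2 fold change of -1.90 ± 0.66 (SE, edgeR adjusted p = 0.47). The zona pellucida binding protein gene *Zpbp* was at -0.91 ± 0.37 (adjusted p = 0.54). *Spaca6*, needed for fusion with the egg, differed in direction at 0.62 ± 0.21 (adjusted p = 0.44). These 3 had an unadjusted p under 0.05 in edgeR, and DESeq2 called 1 of the 6, *Acr* (adjusted p = 0.033). In replicates 2 to 4 *Acr* (-2.18, adjusted p = 1.9e-04) and *Zpbp* (-0.69, adjusted p = 0.0024) were called lower and *Spaca6* (0.84, adjusted p = 0.011) higher, 3 of 6 against 4.32% of all genes called. *Izumo1* (-0.21), *Spaca1* (-0.37) and *Zpbp2* (-1.19) were not called in either. Like *Adam24* and the *Adam6* genes, *Spam1*, *Zp3r*, *Hyal5*, *Llcfc1*, *Spaca3* and *Spaca4* were at 0 TPM in all libraries.

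The isolates held markers of the labelled germ cells and of other cells. Summed TPM of the 13 spermatocyte markers was 2934.2, 1774.1, 2307.1 and 1605.7 in controls 1 to 4 and 1542.7, 1304.9, 1312.2 and 1350.3 in cKO 1 to 4, lower in every cKO library. The means of the sum were 2155.3 in controls and 1377.6 in cKO. Much of that difference came from *Ldhc*, with means of 539.9 and 139.4 TPM. By CPM, replicate 1 was the highest control for 6 of the 13 markers and the highest cKO library for 7. The late markers *Piwil1*, a piRNA-pathway gene of pachytene cells, and *Ldhc*, a germ cell lactate dehydrogenase, had log2 fold changes of -2.05 (edgeR adjusted p = 0.44) and -1.95 (adjusted p = 0.59). In replicates 2 to 4 these were -2.04 (adjusted p = 0.057) and -2.24 (adjusted p = 0.066). The chromosome axis gene *Sycp3* was at -0.09 (adjusted p = 0.91). None of the 13 was called by edgeR and 1, *Piwil1* (adjusted p = 0.035), by DESeq2, and 12 had a log2 fold change under 0. DESeq2 gave no adjusted p for *Pgk2* and *Pou5f2*, the latter named for that reason. In replicates 2 to 4, where 4 of the ADAM genes were called, the meiotic recombination gene *Spo11* (-0.57, edgeR adjusted p = 0.017) and the glycolytic gene *Pgk2* (-3.36, adjusted p = 2.6e-05) were called lower and the recombinase gene *Dmc1* (0.25, adjusted p = 0.046) higher. The part of cell stage in the differences of the ADAM genes was not tested.

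Spermatogonial markers summed to 960.2 to 1138.4 TPM in controls and 1085.0 to 1318.9 in cKO, and 0 of 11 were called by edgeR with all libraries. With all libraries 1 of the 11 had a log2 fold change under 0, *Id4* of spermatogonial stem cells (-0.48), and the median was 0.2. *Id4* was called lower by DESeq2 (adjusted p = 0.039) and in replicates 2 to 4 (-0.35, edgeR adjusted p = 0.040). Round spermatid markers summed to 18.0 to 53.3 TPM in controls and 14.0 to 25.4 in cKO. The defining *Prm1* and *Tnp2* were at 0 TPM in all libraries, and 0 of the 3 tested were called. Sertoli cell markers, which a pure germ cell isolate would lack, summed to 4733.6 to 5780.2 TPM in controls and 4836.1 to 5799.0 in cKO, most of it from *Clu*, and 0 of 9 were called. Leydig cell markers summed to 35.9 to 89.7 and 48.6 to 73.8 TPM, and peritubular markers to 323.6 to 442.6 and 298.4 to 577.7. Macrophage markers summed to 10.4 to 28.1 and 19.5 to 26.7 TPM, and endothelial markers to 4.88 to 9.58 and 4.32 to 9.94, with no call in these lists with all libraries. In replicates 2 to 4 the smooth muscle gene *Myh11* was called higher (0.27, edgeR adjusted p = 0.012). Their part in the differences was not tested.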

How the data were processed

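The authors prepared non-stranded poly(A) libraries, read as 150 bp paired ends, aligned them to GRCm39 (mm39) with STAR 2.7.9a and quantified genes of Ensembl 105 with RSEM 1.3.3, per the paper's methods and the submitters' processing notes. They deposited RSEM expected counts and TPM values of 55357 genes in 8 samples, without a filter. Expected counts (15.2% of non-zero values not whole) were rounded, and the 20187 genes that reached a TPM of 1 in any sample were tested with edgeR 4.0.16 (TMM, robust quasi-likelihood F-test, no covariate, R 4.3.3), with Benjamini-Hochberg adjustment over all genes and a threshold of 0.05. Ratios within a library were compared by exact permutation, two-sided (scipy 1.17.1). Alternatives were DESeq2 1.42.0, limma-voom (limma 3.58.1), other scalings and filters, a replicate block, each sample left out and replicates 2 to 4 alone. Positions came from GENCODE M39. The tests were tried on simulated counts first. Likeness is Pearson's r of log2 CPM (prior count 2).

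The members, the other gene lists and the alternatives were chosen with earlier results of these data known. Named genes are all members, *Mgat2*, up to 6 genes of each other list with the smallest p, the defining markers, and the 3 genes most like each tested member. Flanking and overlapping genes were named for their position. No sample was left out, and no protein sequence was used here.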

Additional observations from a re-analysis of the deposited data

Results flagged for a closer look

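Of 16 groups of 4 libraries checked (7 detected testis ADAM genes and *Mgat2*, in 2 genotypes), 9 had 1 library far from the others, with a gap to its nearest neighbour whose share of the whole range of the group passed Dixon's 95% critical value for 4 samples. Chance flags about 1 in 20 groups where the values are normally distributed, and that was not tested here. The check was made on CPM and was not repeated on log2 CPM, so the 9 groups are not weighed against that rate. In all 9 the distant library was the highest and was replicate 1. In controls the share of the range was 0.8875 for *Adam1b*, 0.8479 for *Adam32* and 0.8292 for *Adam3*, which only just passed. In cKO it was 0.9686 for *Adam3*, 0.9682 for *Adam18*, 0.9681 for *Adam1b*, 0.9233 for *Adam32*, 0.9193 for *Adam5* and 0.8674 for *Adam2*. These groups are not independent, since 1 library of each genotype is the distant sample in all of them. *Adam1a* and *Mgat2* had no such library in either genotype.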

How the results depend on the processing

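The testis ADAM genes called numbered 0 with all libraries and with each library left out, 4 in replicates 2 to 4, where 4.32% of all genes were called, and 5 with a replicate block, where 7.25% were. Of the ADAM3 maturation genes, 0 were called with all libraries and in each leave-one-out comparison, 1 by DESeq2, 4 in replicates 2 to 4 and 5 with the block. For the acrosome and sperm-egg genes these counts were 0, 1, 3 and 3, and for the other ADAM genes 0, 0, 1 and 1. The convertase count of 1 became 0 with limma-voom and with filterByExpr, ranged from 0 to 1 when libraries were left out, and stayed at 1 with the block (*Pcsk4* adjusted p = 6.5e-08). *Mgat2* was at -1.06 by DESeq2 (adjusted p = 0.025) and at -1.25 to -0.86 with a library left out.

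Folds of the members depended on replicate 1. Without control replicate 1 the log2 fold changes of the 6 lower members were -1.03 to -0.71, and without cKO replicate 1 they were -5.32 to -2.25, with 0 calls in both (adjusted p of 0.79 to 0.95 and of 0.24 to 0.27). The ranges over all left-out libraries were -2.25 to -1.03 for *Adam2*, -3.09 to -0.93 for *Adam1b*, -5.32 to -0.71 for *Adam3*, -3.92 to -1.02 for *Adam5*, -5.16 to -1.0 for *Adam18* and -4.13 to -1.0 for *Adam32*. The median over all 7 tested members, *Adam1a* included, ran from -3.92 to -1.0. From 6 to 7 members were lower, and *Adam1a* ran from -0.07 to 0.37.

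The labels and methods do not say whether mice of the same number were related or handled together, and the numbers were not taken as pairs because not every same-numbered pair correlated above 0.1. Deviations of same-numbered samples correlated at 0.53, 0.14, 0.04 and 0.20 over all tested genes for replicates 1 to 4 (mean 0.23, against -0.07 for different numbers). Over 15285 genes with a mean of 1 CPM or more they correlated at 0.69, 0.29, 0.09 and 0.34 (mean 0.35, against -0.09). Over all tested genes control 3 ran as close to cKO 2 (0.07) as to cKO 3. With the block edgeR called 1464 of 20187 genes, with *Adam1b* (-1.99), *Adam2* (-1.59), *Adam5* (-2.44), *Adam18* (-2.77) and *Adam32* (-2.51) among them and without *Adam3* (adjusted p = 0.17). In all, 8 genes were called, against 17 with library totals, 302 by DESeq2, 35 without the expression filter, 845 in replicates 2 to 4 and 0 to 32 with a library left out. With limma-voom and with filterByExpr 0 were called, while 2030 and 1665 genes had an unadjusted p under 0.05, against 1796 in edgeR with all libraries. Depth limits *Adam3* and *Adam18*, which had 2 to 12 counts in cKO replicates 2 to 4.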
